A study of Homo sapiens with 1 sample.

Results

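The let-7 family guide arms are the 9 mature miRNAs hsa-let-7a-5p, hsa-let-7b-5p, hsa-let-7c-5p, hsa-let-7d-5p, hsa-let-7e-5p, hsa-let-7f-5p, hsa-let-7g-5p, hsa-let-7i-5p and hsa-miR-98-5p. They were chosen by name from the 2549 human miRNAs on a miRNA microarray, and all 9 were on the array. RNA came from DLD-1, a human colorectal carcinoma cell line grown in RPMI medium with fetal bovine serum and transfected with pLVX-NC, a negative control plasmid. The study set this control beside DLD-1 cells overexpressing circLONP2, a circular RNA, which were not analysed here. There was 1 array and no replicate culture, so every spread given is between spots of that array, and no test between conditions was possible.

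let-7 miRNAs repress mRNAs that carry a matching site, among them those of the RAS genes, MYC, HMGA2 and LIN28, and the family is known for restraining growth and promoting differentiation in epithelia. LIN28 proteins bind let-7 precursors and block their maturation. The target site is read mainly through the seed, bases 2 to 8 counted from the 5′ end, which the whole family shares.

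The mature sequences (RefSeq, GRCh38.p14) are shown because the members differ at so few bases that a probe for one may also bind another. Capitals mark the seed.
hsa-let-7a-5p: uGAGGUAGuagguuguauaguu
hsa-let-7b-5p: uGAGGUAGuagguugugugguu
hsa-let-7c-5p: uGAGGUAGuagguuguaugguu
hsa-let-7d-5p: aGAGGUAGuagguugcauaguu
hsa-let-7e-5p: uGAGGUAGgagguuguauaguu
hsa-let-7f-5p: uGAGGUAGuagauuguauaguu
hsa-let-7g-5p: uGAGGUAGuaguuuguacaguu
hsa-let-7i-5p: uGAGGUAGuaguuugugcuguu
hsa-miR-98-5p: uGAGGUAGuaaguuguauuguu

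All 9 sequences were 22 nt long and held the same seed. Counted from the 5′ end, with the base of hsa-let-7a-5p first, hsa-let-7c-5p differed from it at A19G, hsa-let-7e-5p at U9G and hsa-let-7f-5p at G12A. hsa-let-7b-5p differed at A17G and A19G, hsa-let-7d-5p at U1A and U16C, hsa-let-7g-5p at G12U and U18C, and hsa-miR-98-5p at G11A and A19U. hsa-let-7i-5p was the most distant from hsa-let-7a-5p, at G12U, A17G, U18C and A19U. Of the 36 pairs of members, 4 differed at 1 base and 10 at 2 bases.

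The 9 mature miRNAs come from 12 loci (GRCh38.p14), and an array of mature miRNAs cannot tell loci of the same miRNA apart. hsa-let-7a-5p has 3 loci, at chr9:94175962-94175983 on the plus strand, chr11:122146568-122146589 on the minus strand and chr22:46112752-46112773 on the plus strand. They lie within the long non-coding RNA genes MIRLET7A1HG, MIR100HG and MIRLET7BHG. hsa-let-7f-5p has 2 loci, at chr9:94176353-94176374 on the plus strand within MIRLET7A1HG and at chrX:53557246-53557267 on the minus strand within HUWE1, a gene for a ubiquitin ligase. hsa-let-7d-5p, at chr9:94178841-94178862 on the plus strand, is the last of the chromosome 9 cluster. hsa-let-7b-5p, at chr22:46113691-46113712 on the plus strand, follows the third hsa-let-7a-5p locus with 863 bp between the hairpins. hsa-miR-98-5p, at chrX:53556299-53556320 on the minus strand, lies 850 bp from the second hsa-let-7f-5p hairpin. hsa-let-7c-5p lies at chr21:16539838-16539859 on the plus strand within MIR99AHG, and hsa-let-7e-5p at chr19:51692793-51692814 on the plus strand within SPACA6. hsa-let-7g-5p lies at chr3:52268336-52268357 on the minus strand within WDR82, and hsa-let-7i-5p at chr12:62603691-62603712 on the plus strand within MIRLET7IHG. The gene table used here gives whole gene intervals, so exon or intron was not assigned.

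Each member was measured by 2 probes with 10 spots each, 180 spots in all. No spot was saturated, and 121 were well above background by the scanner software's flag. The software marked 7 as outliers, which were left out of the means and spreads. Brightness is given in arbitrary units after background subtraction. It depends on how strongly a probe binds, so the brightness of different probes is not an amount of RNA. How the RNA was labelled is not settled, since the labels name ligation of a Cy3 dye to the miRNA and the methods name cDNA labelling.

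Of the markers of epithelium and intestine, 7 of 9 were detected, against 56.8% of all human miRNAs on the array. The highest total signal was 1112 for hsa-miR-141-3p, an epithelial miRNA. The next was 29.9 for hsa-miR-200b-3p, and the lowest detected one was 4.86 for hsa-miR-200a-3p. The intestinal markers hsa-miR-192-5p and hsa-miR-194-5p were not detected. Of 13 markers of blood, stroma, muscle, endothelium, liver and neurons, 7 were detected, near the array-wide share. Their highest total signal was 28.4, for the neuronal marker hsa-miR-124-3p. Apart from hsa-miR-141-3p, the detected markers of both groups thus lay in a similar range. The total signal is the software's sum over the probes of a miRNA. For the members, each probe counted added 0.184 times its mean brightness to the total.

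hsa-let-7b-5p was the brightest member, hsa-let-7c-5p and hsa-let-7a-5p followed, and hsa-miR-98-5p was not detected. The software flagged 8 of the 9 members as detected, against 56.8% of all human miRNAs on the array. With 9 members and a single array, these shares are a description. The summed total signal of the 8 detected members was 696.9, of which the 3 brightest members held 91.1%.

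The brighter probe of hsa-let-7b-5p had spots from 1018 to 1082 with a median of 1041, and its other probe had spots from 986 to 1008 with a median of 993. Over both probes the mean brightness was 1026 ± 29.8 (SD, n = 17 spots). Every spot of both probes was well above background, and the probe means of 1046 and 998 were the closest of any member on the log2 scale.

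hsa-let-7c-5p had spots from 573 to 631 on its brighter probe, with a median of 606. On its other probe they ran from 327 to 347, with a median of 338. The spots of the probes did not overlap, and none reached those of hsa-let-7b-5p. The mean brightness was 469 ± 137 (SD, n = 18 spots), whereas within a probe the SD was 18.3 and 6.54.

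The brighter probe of hsa-let-7a-5p had spots from 353 to 374 with a median of 364, and its dimmer probe had spots from 93.9 to 115 with a median of 106. The mean brightness was 228.3 ± 133.3 (SD, n = 19 spots). The brighter probe was therefore above the dimmer hsa-let-7c-5p probe, while the dimmer one was below the brighter probe of hsa-let-7f-5p. The probes of hsa-let-7a-5p thus fell at different places in the order of the family.

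hsa-let-7f-5p had spots from 123 to 158 on its brighter probe, with a median of 134. Its dimmer probe gave 21.0 to 33.1, with a median of 27.8. All its spots were well above background, although the dimmer probe fell in the range of hsa-let-7i-5p and hsa-let-7d-5p. The mean over both probes was 82.0 ± 56.9 (SD, n = 20 spots).

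hsa-let-7i-5p had a mean brightness of 40.6 ± 8.26 (SD, n = 20 spots), with spots from 39.9 to 57.8 on one probe and from 27.6 to 40.9 on the other. hsa-let-7d-5p had 30.2 ± 11.9 (SD, n = 20 spots), with spots from 30.8 to 49.7 and from 15.7 to 26.2. The spots of these members overlapped each other. Of the spots of hsa-let-7i-5p all 20 were well above background, whereas the dimmer hsa-let-7d-5p probe had 5 of 10.

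hsa-let-7g-5p and hsa-let-7e-5p were close to the background. hsa-let-7g-5p had a mean brightness of 15.5 ± 5.60 (SD, n = 20 spots), with 6 of 10 spots of its brighter probe and 0 of 10 of its other probe well above background. hsa-let-7e-5p had 10.9 ± 2.83 (SD, n = 20 spots) and no spot well above background, although it carried the detection flag. The 1000 negative control spots had a 99th percentile of 12.5, which became 5.58 without the brightest of the 7 negative control probes. The brighter hsa-let-7e-5p probe, with a mean of 12.9, was 1.03-fold the first level and 2.31-fold the second. The dimmer one, with a mean of 8.90, was 0.71-fold the first level and 1.59-fold the second.

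hsa-miR-98-5p had spots from 2.98 to 8.13 on one probe and from -2.73 to 4.54 on the other. None was well above background, and the mean of 3.47 ± 2.94 (SD, n = 19 spots) was below both levels of the negative controls. On its brighter probe, 9 of 10 spots were still positive and significant over the local background. Against the lowest probe well above background on this array, at 13.7, hsa-let-7b-5p was at least 74.4-fold brighter than hsa-miR-98-5p. That bound is for the average over both probes on the log2 scale. On its dimmer probe 4 of 10 spots were below 1, so no exact fold against hsa-miR-98-5p is given.

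**Figure D1:**
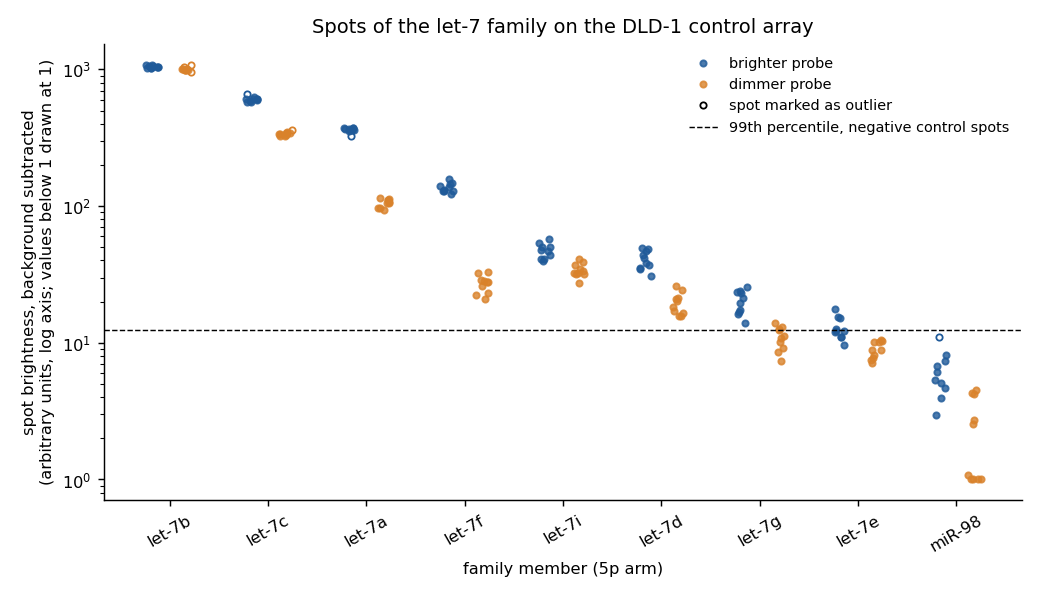
Brightness of each spot on a log axis for the 9 family members, with the brighter probe of each member in blue and the dimmer in orange; open circles are spots marked as outliers and the dashed line is at 12.5, the level that 99% of negative control spots stayed under. The spots of hsa-let-7b-5p lie near 1026. Those of hsa-let-7e-5p lie mostly below the dashed line, with some of its brighter probe above it, and those of hsa-miR-98-5p lie below it.

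The 7 members with a spot well above background, from hsa-let-7b-5p to hsa-let-7g-5p, formed 6 neighbouring pairs in the order of brightness. All 6 differed by more than 2 standard errors of their spots. For 5 of the 6, however, the probes of the brighter member overlapped in mean with those of the dimmer one, so their order depends on which probe is read. The exception was hsa-let-7b-5p over hsa-let-7c-5p, which differed by 1.18 ± 0.01 on the log2 scale (standard error from spots). For hsa-let-7e-5p and hsa-miR-98-5p, without a spot well above background, no size of difference is given. With the dimmer probe of each member, hsa-let-7i-5p was placed above hsa-let-7f-5p.

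Both probes of a member are assigned to the same miRNA, and for some members they differed widely in brightness. The log2 difference between brighter and dimmer probe was largest for hsa-let-7f-5p, at 2.35 ± 0.08 (standard error from spots), a 5.06-fold difference in mean brightness. For hsa-let-7a-5p it was 1.79 ± 0.03, or 3.46-fold, and for hsa-let-7d-5p 1.05 ± 0.11. These 3 of the 8 detected members exceeded 1 on the log2 scale, against 24.7% of all detected human miRNAs with 2 or more probes. hsa-miR-98-5p, with no spot well above background and spots raised to the lower limit, is left out. hsa-let-7d-5p was the nearest above the limit and hsa-let-7g-5p, at 0.88 ± 0.13, the nearest below it. hsa-let-7c-5p had 0.84 ± 0.02, hsa-let-7e-5p 0.53 ± 0.11 and hsa-let-7i-5p 0.46 ± 0.08. Both hsa-let-7e-5p probes and the dimmer hsa-let-7g-5p probe had no spot well above background, so these values are not exact sizes. hsa-let-7b-5p had 0.07 ± 0.01. The median over the 8 detected members was 0.86, beside 0.36 over all detected human miRNAs. Probe sequences were not used here, and the part that probe length or binding strength has in these differences was not tested.

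**Figure D2:**
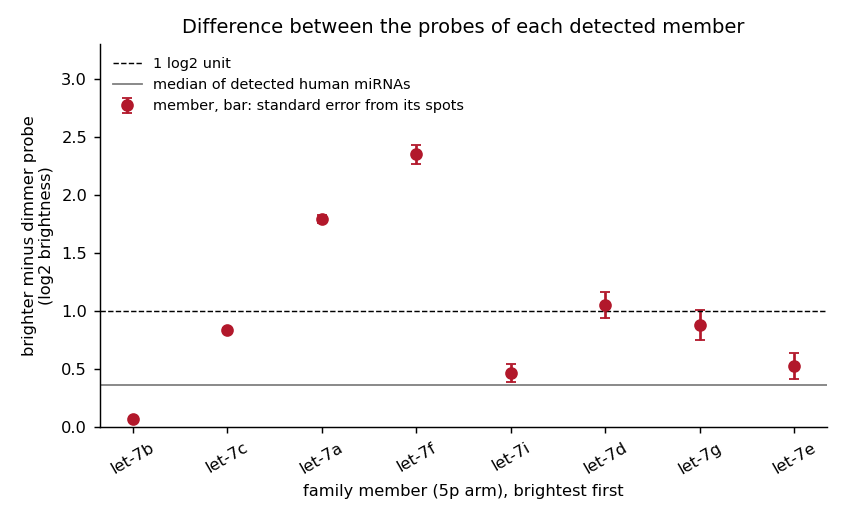
Log2 brightness of the brighter probe minus that of the dimmer probe for each of the 8 detected family members, with bars for the standard error from spots; the dashed line marks 1 log2 unit and the grey line the median of detected human miRNAs, 0.36. hsa-let-7f-5p, at 2.35, and hsa-let-7a-5p, at 1.79, stand highest, and hsa-let-7b-5p, at 0.07, lowest.

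By total signal, hsa-let-7b-5p was 375.8, rank 103 of the 1448 detected human miRNAs and the one member in the top 10%. hsa-let-7c-5p had 172.4 and rank 182, and hsa-let-7a-5p had 86.5 and rank 325. hsa-let-7f-5p had 30.1 and rank 627, near the middle. The rest of the family was in the lower part of the list. hsa-let-7i-5p had 14.9 and rank 879, and hsa-let-7d-5p had 11.1 and rank 986. hsa-let-7g-5p had 3.69 and rank 1311, and hsa-let-7e-5p had 2.38 and rank 1391. The median total signal of the 8 detected members, 22.5, lay beside 23.1 for all detected human miRNAs, while the members themselves ran from rank 103 to rank 1391. Their median percentile was 48.0 among detected human miRNAs, and the median of the same 8 members among all human miRNAs on the array was 70.5. The higher value follows from adding the 1101 undetected miRNAs, which were all given the lowest total signal, 0.1.

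**Figure D3:**
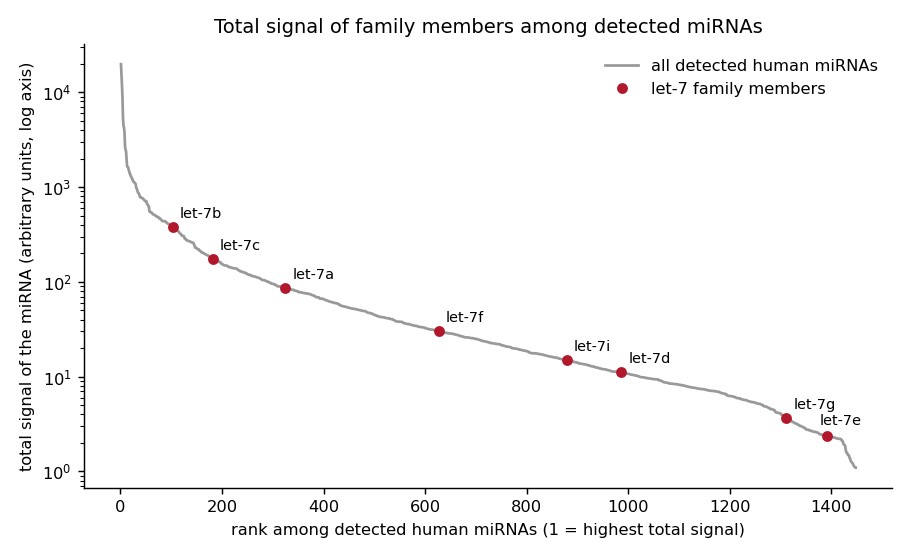
Total signal of all 1448 detected human miRNAs on a log axis against their rank, with the 8 detected family members in red. The members spread from rank 103 for hsa-let-7b-5p to rank 1391 for hsa-let-7e-5p.

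The total signal leaves out probes that the software did not detect, which touched the dimmest members only. For hsa-let-7e-5p the total of 2.38 came from 1 of its probes, and adding the other gave 4.01, or 1.69 times as much. For hsa-let-7g-5p the total of 3.69 became 5.70, or 1.54 times as much. For the other 6 detected members both probes were in the total.

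The authors' deposited log2 values kept the order of the bright members. They were 8.46 for hsa-let-7b-5p, 7.34 for hsa-let-7c-5p, 6.12 for hsa-let-7a-5p and 4.49 for hsa-let-7f-5p. hsa-let-7i-5p had 3.52 and hsa-let-7d-5p 3.16. Below these the deposited scale no longer separated members. hsa-let-7g-5p and hsa-let-7e-5p both had 2.33, a value shared by 183 detected human miRNAs, although their total signals differed. hsa-miR-98-5p had 2.32, the lowest deposited value, which corresponds to 5.0 on the linear scale. A fold change against this lower limit can therefore not be read as a fold change in brightness for these 3 members.

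For the 6 brighter members the deposited value was below the log2 total signal. The difference ran from -0.42 for hsa-let-7f-5p to -0.09 for hsa-let-7c-5p and hsa-let-7b-5p. Over the 1265 detected human miRNAs deposited above 2.33, the same difference had a median of -0.31, from -0.44 to 1.22. For hsa-let-7g-5p and hsa-let-7e-5p it was 0.44 and 1.08. The arrays that were normalized together are not named in the sources used here.

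**Figure D4:**
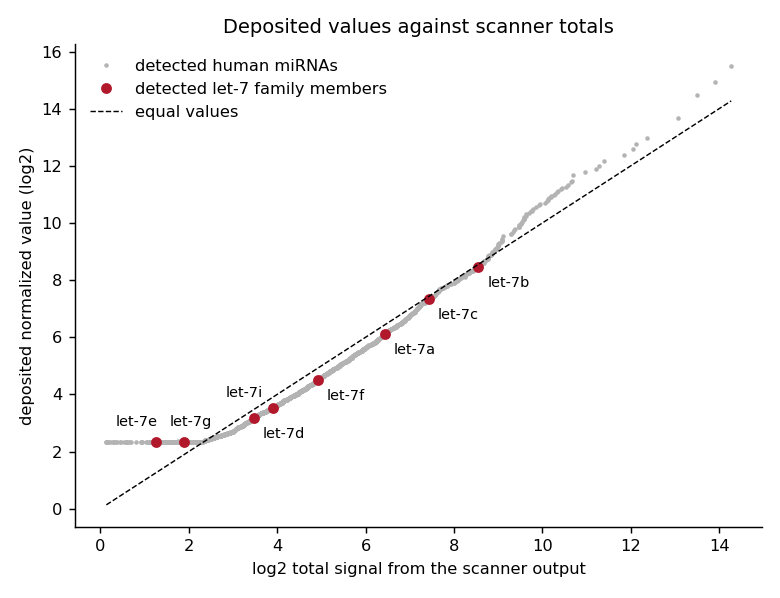
Deposited log2 value against the log2 total signal of the scanner output for detected human miRNAs (grey) and the 8 detected family members (red), with a dashed line for equal values. hsa-let-7e-5p and hsa-let-7g-5p lie on the flat part at 2.33, and hsa-let-7b-5p, at 8.46, is the highest member.

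Cross-hybridization within the family bears on the pairs that differ at 1 base, of which there were 4. hsa-let-7a-5p and hsa-let-7e-5p, which differ at U9G, were the furthest apart in brightness. The brighter hsa-let-7e-5p probe, with a mean of 12.9, reached 3.54% of the brighter hsa-let-7a-5p probe and 12.3% of the dimmer one. Averaged over both probes on the log2 scale, hsa-let-7a-5p was at least 14.3-fold brighter than hsa-let-7e-5p, which had no spot well above background. This bound does not hold for the dimmer hsa-let-7a-5p probe alone.

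The other pairs at 1 base were closer in brightness. hsa-let-7c-5p differs from hsa-let-7b-5p at G17A, and its brighter probe reached 57.4% of the brighter hsa-let-7b-5p probe. hsa-let-7a-5p differs from hsa-let-7c-5p at G19A, and its brighter probe reached 60.7% of the brighter hsa-let-7c-5p probe. hsa-let-7f-5p differs from hsa-let-7a-5p at G12A, and its brighter probe reached 37.5% of the brighter hsa-let-7a-5p probe. These base differences are between mature miRNAs, as probe sequences were not used. How much of the hsa-let-7c-5p, hsa-let-7a-5p and hsa-let-7f-5p signal came from a brighter relative was not tested.

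Among the 7 members with a spot well above background there were 21 pairs. The log2 difference in brightness had a median of 1.20 for the 3 pairs that differ at 1 base, from 1.18 to 1.70. It was 2.60 for the 6 pairs at 2 bases, 4.08 for the 5 pairs at 3 bases and 2.90 for the 6 pairs at 4 bases. With hsa-let-7a-5p and hsa-let-7e-5p included, whose difference is not an exact size, the median at 1 base was 1.45. The most distant pair, hsa-let-7i-5p and hsa-let-7d-5p with 6 differing bases, differed by 0.51 only. Pairs share members and probes, so they are not independent, and these values are a description. The count of G and C bases also varied with the members. hsa-let-7a-5p, hsa-let-7c-5p and hsa-let-7b-5p held 8, 9 and 10 of them and rose in brightness in that order. hsa-let-7d-5p, hsa-let-7e-5p and hsa-let-7i-5p held 9 as well and were all dimmer than hsa-let-7a-5p. hsa-let-7g-5p held 8, and hsa-let-7f-5p and hsa-miR-98-5p held 7. These were dimmer than hsa-let-7a-5p too, while hsa-let-7f-5p was brighter than hsa-let-7d-5p, hsa-let-7e-5p and hsa-let-7i-5p.

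**Figure D5:**
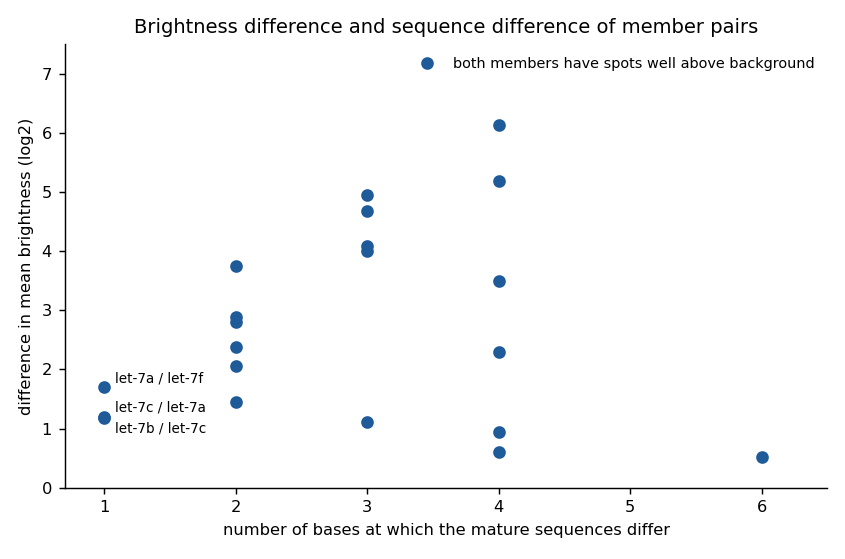
Difference in mean log2 brightness for each of the 21 pairs among the 7 members with a spot well above background, against the number of bases at which their sequences differ. The 3 pairs at 1 base are named and run from 1.18 to 1.70, and the pair at 6 bases lies at 0.51.

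Beyond the family, 2 other human miRNAs on the array share the seed GAGGUAG, out of 2248 whose mature sequence was in RefSeq by name. With the 9 members this is 0.489% of them. They are shown because the seed is the part that target sites match.
hsa-miR-4458: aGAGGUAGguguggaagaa
hsa-miR-4500: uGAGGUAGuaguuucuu

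hsa-miR-4458 was detected, with a mean brightness of 149 ± 19.3 (SD, n = 20 spots), all 20 of them well above background. Its total signal of 54.9, rank 441, lay between those of hsa-let-7a-5p and hsa-let-7f-5p. hsa-miR-4500, at an edit distance of 5 from hsa-let-7g-5p (an edit is 1 base changed, added or removed), was not detected and had a mean of -1.89 ± 1.96 (SD, n = 20 spots). None of its spots was well above background.

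The closest sequence without the family seed was hsa-miR-4510, at an edit distance of 2 from hsa-let-7c-5p. It is shown for that likeness.
hsa-miR-4510: ugagggaguaggauguaugguu

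hsa-miR-4510 was flagged as detected at a total signal of 2.39, with 0 of 20 spots well above background. Its probe means were 1.52 and 13.0, the higher being 2.17% of the brighter hsa-let-7c-5p probe. The next in sequence, hsa-miR-1827 and hsa-miR-6130 at an edit distance of 5 and hsa-miR-6129 and hsa-miR-6134 at 6, had total signals of 7.21, 28.6, 154.9 and 10.9. All 4 were detected, and hsa-miR-6129, at rank 199, was brighter in total than hsa-let-7a-5p.

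Several let-7 loci lie beside other miRNAs, and 5 of these 7 neighbours were detected, against 56.8% of all human miRNAs on the array. Beside hsa-let-7c-5p in MIR99AHG, hsa-miR-99a-5p was not detected and had a mean brightness of 0.07 ± 1.87 (SD, n = 20 spots). hsa-let-7c-5p, with 705 bp between its hairpin and the hsa-miR-99a-5p sequence, was the second brightest member. Their brightness was thus far apart, and whether hsa-let-7b-5p RNA on the hsa-let-7c-5p probes has a part in this was not tested.

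hsa-miR-125b-5p, which has a locus in MIR99AHG and another in MIR100HG, had a mean of 41.4 ± 30.8 (SD, n = 19 spots) from probes at 13.2 and 72.7. hsa-miR-100-5p, in MIR100HG with 1 of the 3 hsa-let-7a-5p loci, had 8.66 ± 4.20 (SD, n = 20 spots) and no spot well above background. Both were dimmer than hsa-let-7a-5p. Beside hsa-let-7e-5p in SPACA6, hsa-miR-99b-5p had 40.5 ± 3.71 (SD, n = 19 spots) and hsa-miR-125a-5p had 13.9 ± 5.27 (SD, n = 20 spots). The hsa-miR-99b-5p spots were all well above background, unlike those of hsa-let-7e-5p.

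Beside hsa-let-7b-5p in MIRLET7BHG, hsa-miR-4763-3p had a mean brightness of 246 ± 14.9 (SD, n = 20 spots) and hsa-miR-4763-5p was not detected, with 3.66 ± 2.82 (SD, n = 20 spots). On chromosome 9, hsa-let-7d-5p shares its cluster with loci of hsa-let-7a-5p and hsa-let-7f-5p, whose means of 228 and 82.0 were above its 30.2. On the X chromosome hsa-miR-98-5p shares HUWE1 with a locus of hsa-let-7f-5p, which was detected while hsa-miR-98-5p was not. Since hsa-let-7a-5p and hsa-let-7f-5p each have loci elsewhere, their signal cannot be assigned to any of these clusters.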

How the data were processed

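The measurement was 1 miRNA array of control-plasmid DLD-1 cells. The authors deposited spot intensity on a linear scale from Agilent Feature Extraction 11.0.1.1, which had subtracted background and set outlier and detection flags (deposited flags, here coded as other values). The authors also deposited log2 values, quantile normalized in GeneSpring GX per the methods.

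Control spots and outlier spots were dropped. Values under 1 were raised to 1 before log2, and log2 brightness was averaged over spots, then probes. Where a relative value is given, the 75th percentile of 2567 reference probes (248.8) was subtracted. These were probes of detected miRNAs with a share of at least 0.5 of their spots well above background. Python 3.11.15, numpy 2.4.6, pandas 2.3.3, and limma 3.58.1 in R 4.3.3 for normexp (offset 50, on median spot signals) were used. The calculation of probe differences was tried on simulated spots. Probes as dim as those of hsa-let-7e-5p and hsa-miR-98-5p, or the dimmer hsa-let-7g-5p probe, were not simulated, so it does not cover them. Mature sequences and loci came from RefSeq tables. The members and lists, among them cluster neighbours and markers, were chosen with earlier results of these data known. All members, seed sharers and neighbours are named whatever their values, with the 5 closest other sequences, 6 with a tie. Precision is limited by the number of arrays, and no p-value is given.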

Additional observations from a re-analysis of the deposited data

How the results depend on the processing

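The order of the 9 members was the same with outlier spots kept, with the brightest probe, after normexp and on either side of the array. It differed with the dimmest probe and in the deposited values, where hsa-let-7g-5p and hsa-let-7e-5p tie. The number of members detected, 8, was 7, 6 and 9 under other detection criteria. After normexp, whose offset of 50 is added to every spot and narrows ratios, the log2 span of measured brightness, 8.32, became 4.07. The span is not an exact size, since hsa-miR-98-5p has no spot well above background and 4 spots at the lower limit. Over the detected members, an alternative chosen after seeing the data, the span of 6.59 became 3.91 after normexp and 7.31 from the total signal. It is not exact either, as hsa-let-7e-5p has no spot well above background. The 4 members with probes over 1 apart, hsa-miR-98-5p included, became 2 after normexp. They were 2 when every spot had to be well above background, which left 5 members with both probes. The median deposited value minus the log2 total signal, -0.20, was -1.52 against the mean log2 brightness. These medians cover the 8 detected members, including hsa-let-7g-5p and hsa-let-7e-5p at the deposited 2.33. The array-wide median of -0.31 leaves out miRNAs at that value, so it is not a like comparison. Total signal and brightness are on different scales, since each probe counted adds 0.184 times its mean brightness to the total. For pairs at 1 base the median of 1.45 was 1.11 with the brightest probe and 1.20 among members with a spot well above background, also chosen after seeing the data. With the 75th percentile of the reference probes subtracted, the hsa-let-7a-5p log2 signal was -0.35. Its sign changed with the percentile over all probes, to 1.45. With its brightest probe alone, which lay 1.79 above its other probe on the log2 scale, it was 0.55. From the total signal it was 0.19, where the cause was not tested. The span over 9 members was not computed from the total signal, where hsa-miR-98-5p has only a placeholder. No paired analysis was possible because a single array gives no pairs.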
